A study of Mus musculus with 4 samples.

Results

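Pi16, Dpp4, Ly6a, Ly6c1, Cd34, Thy1, Dpt, Clec3b, Mfap5 and Tnxb are genes used to mark universal fibroblast progenitors. These 10 genes were chosen by name, and all 10 have a row among the 26600 genes shared by the 4 count tables. They were followed by cell class, by single cell and by library in endosteal bone marrow of Col2:Td mice, in which Col2-Cre switches on the red reporter Td. The 4 libraries came from pooled male mice of strain B6SJL/F1, with 2 mice aged 1 month and 3 mice each aged 1.5, 3 and 16 months. Where Td gave no clear peak, the 1% of endosteal cells with the most Td signal were sorted, and all Td+ cells otherwise. Each age is 1 library, so age and library cannot be told apart and no test between ages was possible. The intervals given are 95% intervals and cover counting error only.

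Universal fibroblast progenitors lie in the outer connective tissue sheath of vessels and organs, and are thought to feed more specialised fibroblasts of the tissue around them. Their marker genes code for secreted or matrix proteins (the peptidase inhibitor homologue Pi16, dermatopontin Dpt, tetranectin Clec3b, the microfibril protein Mfap5 and tenascin X Tnxb) and for surface proteins (the peptidase Dpp4, the Ly6 proteins Ly6a, also called Sca1, and Ly6c1, the sialomucin Cd34 and Thy1). Several of the surface proteins are also known from blood vessels, lymphocytes or blood stem cells.

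Ly6c1 has a near copy, Ly6c2, and reads of one could be counted for the other, so the start of both coding sequences is shown as GENCODE M21 gives it. Each runs to 396 bases, and they differ at 9 positions (97.7% identity), of which 6 fall in the 120 bases shown and stand in capitals. After the stop codon, where 3′ reads fall, the copies were 96.4% identical over 389 aligned positions.
Ly6c1: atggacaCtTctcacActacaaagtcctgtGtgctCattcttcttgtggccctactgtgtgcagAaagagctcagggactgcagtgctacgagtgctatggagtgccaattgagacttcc
Ly6c2: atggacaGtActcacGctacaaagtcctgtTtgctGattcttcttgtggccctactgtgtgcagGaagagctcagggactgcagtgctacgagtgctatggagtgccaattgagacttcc
On build GRCm38 Ly6c1 lies on the minus strand at chr15:75044018-75048830, between Ly6a at chr15:74994877-74998031 and Ly6c2 at chr15:75108158-75111970.

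Dpt and Tnxb are shown by the sequence before their start, since both were highest in early mesenchymal progenitors in all 4 libraries and both have an entry in the RefSeq promoter table (GRCm38.p6), which held 6 of the 10 genes. Capitals mark CAGGTG, read on both strands, and TGANTCA, which reads the same on both. The first occurs in 17.2% and the second in 6.75% of the 32851 promoter windows of the table, and each occurs in 1 of the 7 windows of these genes.
Dpt, chr1:164796413-164796643, plus strand: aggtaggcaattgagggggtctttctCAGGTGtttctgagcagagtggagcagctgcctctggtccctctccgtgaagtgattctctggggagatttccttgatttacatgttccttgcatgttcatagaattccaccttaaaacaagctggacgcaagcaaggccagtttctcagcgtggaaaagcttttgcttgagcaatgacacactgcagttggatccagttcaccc
Tnxb, chr17:34670285-34670534, plus strand: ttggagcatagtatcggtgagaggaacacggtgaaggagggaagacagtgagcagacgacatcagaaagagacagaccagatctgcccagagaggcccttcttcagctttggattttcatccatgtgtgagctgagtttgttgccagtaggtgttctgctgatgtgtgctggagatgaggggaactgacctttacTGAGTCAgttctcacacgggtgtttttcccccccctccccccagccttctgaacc
The Dpt gene spans chr1:164796644-164824266 and Tnxb chr17:34670535-34719815, both on the plus strand. Tnxb has a partial copy, Tnxa, at chr17:34771395-34801623 and overlaps the pseudogene Cyp21a2-ps, so its counts are less certain.

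The tables held 8417, 5745, 4516 and 9229 barcodes from youngest to oldest, and 8308, 5453, 4180 and 6143 cells passed the filter that the study states, with medians of 6156.5 to 10158.5 UMIs per cell. At 3 and 16 months these are fewer cells than the study counted after its quality control. Pairs among the 3 younger libraries shared 30 to 61 barcodes, and the 16 month library shared 1 or 2 with each of them. The 16 month table also listed 31054 genes, against 27999 in each younger one, and only the 26600 shared genes were used for levels. Blood cells made up 5706, 292, 1365 and 819 of the cells. Cells were clustered without the 10 genes, and clusters were named from other markers. EMP-like stands for early and LMP-like for late mesenchymal progenitors, AD-like for the adipocyte lineage, CH-like for chondrocytes, OB-like for osteoblasts and EC-like for endothelial cells.

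EMP-like cells numbered 235, 172, 137 and 107 from youngest to oldest, or 10.4%, 3.45%, 5.40% and 2.07% of mesenchymal cells. Their 8 naming markers, among them Gsn and Cd248, were not equally clear at each age: 5 were raised at 3 months and 7 at 16 months, against 8 in the main EMP-like cluster of the younger mice. Raised means over the median of all clusters, blood included. Among mesenchymal classes 5, 6, 2 and 5 of the 8 were highest in EMP-like cells from youngest to oldest. At 3 months their median log2 ratio to the highest other mesenchymal class was -0.25, and only Gsn was at least 2-fold higher. The EMP-like name is thus less certain there. Marker RNA of neutrophils was at 24258 CPM (UMIs scaled to 1000000) in EMP-like cells at 1 month and 16899 CPM at 3 months, which is 6.48% and 3.85% of the neutrophil-like level, but at 193 and 278 CPM at 1.5 and 16 months. LMP-like cells held 11698 and OB-like cells 10751 CPM of it at 1 month, and 2542 and 2086 at 3 months. Its part in the values below was tested only by leaving out the EMP-like cells that held most blood-cell RNA.

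Dpt, Clec3b and Tnxb were highest in EMP-like cells in every library, and Mfap5 in all but the 3 month one. Clec3b, at chr9:123150946-123157432, was at 1386, 2381, 1007 and 442 CPM in EMP-like cells from youngest to oldest, which was 13.9, 29.2, 13.1 and 26.8 times the next class. Dpt, a collagen-binding protein, was at 739.9, 1088, 233 and 97.5 CPM, and 5.66, 29.4, 3.72 and 3.21 times the next class. Both genes were thus lower at each age after 1.5 months, and none of these 8 intervals overlapped that of a neighbouring age. Tnxb was at 241, 236, 146 and 111 CPM and differed least between ages. Mfap5, at chr6:122505845-122529290, was at 654, 858, 221 and 298 CPM in EMP-like cells. The order of its 3 and 16 month values turned with the setting, as a limit of 10% on mitochondrial UMIs gave 319 and 196. At 3 months Mfap5 was higher, at 408 CPM, in an unnamed mesenchymal cluster of 48 cells led by Il33, Cxcl9 and Mfap5 itself.

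To compare cells of unequal depth, every cell was thinned to 3000 UMIs. Clec3b was then found in 69.8%, 75.6%, 42.5% and 34.9% of EMP-like cells, against at most 4.14% of neutrophil-like and 2.04% of erythroid-like cells, which should lack it. Dpt was found in 73.2%, 69.2%, 29.2% and 14.2% of EMP-like cells, and Tnxb in 48.1%, 40.1%, 27.4% and 14.2%. Mfap5 was found in 51.1%, 64.0%, 27.4% and 36.8%. Erythroid-like cells with these 3 genes were at 0.569% to 1.59% at 1 month. EMP-like cells held 57.8% to 87.6% of all Clec3b UMIs of a library and 65.2% to 80.5% of Tnxb UMIs. Their share of Mfap5 UMIs was 67.7%, 70.3%, 41.0% and 34.1% from youngest to oldest, and of Dpt UMIs 60.0%, 75.5%, 65.8% and 46.4%. At 16 months 48.3% of Mfap5 UMIs lay in the 3721 AD-like cells, at 10.5 CPM.

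**Figure D1:**
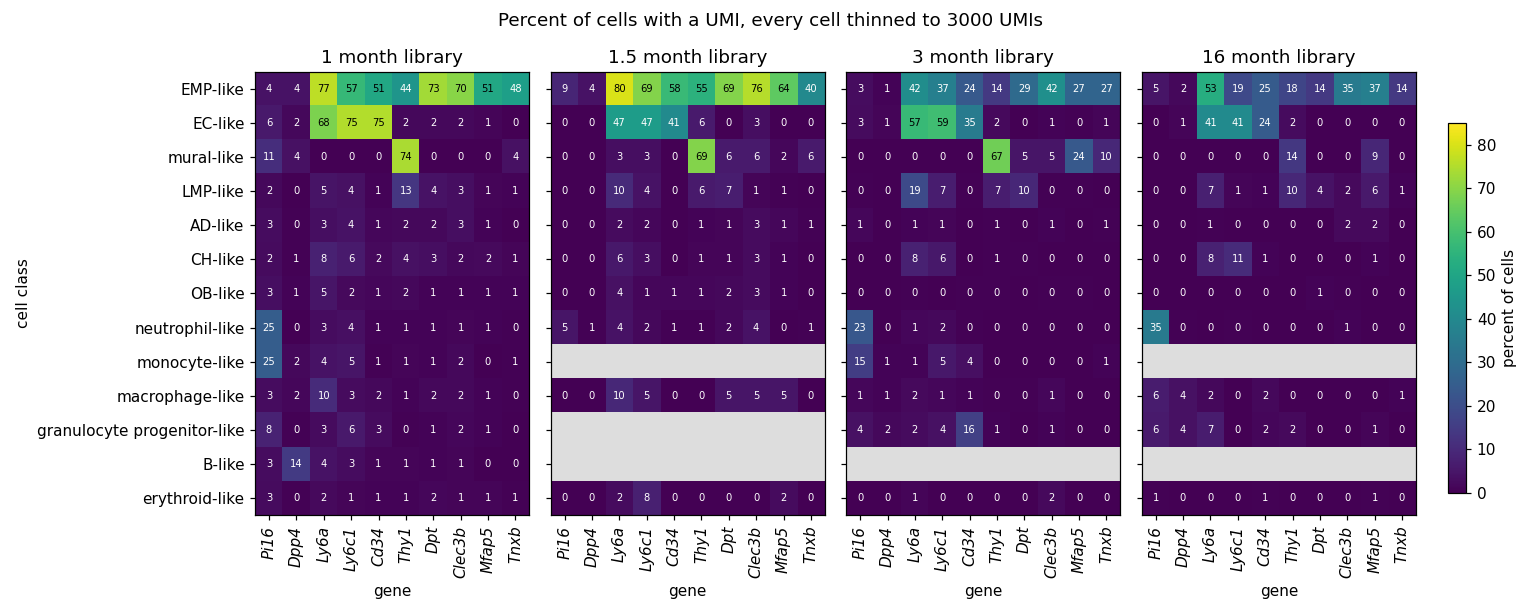
Percent of cells with at least 1 UMI of each gene (columns), by cell class (rows) and library (panels), after every cell was thinned to 3000 UMIs, with grey for classes of under 20 cells. Dpt, Clec3b, Mfap5 and Tnxb fill the EMP-like row, except Dpt and Tnxb at 16 months (14.2% each). Ly6a, Ly6c1 and Cd34 are seen in both the EMP-like and the EC-like row. Thy1 fills the mural-like row except at 16 months (13.6%), and Pi16 the neutrophil-like row except at 1.5 months (4.73%).

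Ly6a and Ly6c1 were high in both EMP-like and EC-like cells. Ly6a was at 1346, 2281, 813 and 526 CPM in EMP-like cells and at 887, 506, 620 and 400 in EC-like cells, lower in each library. Ly6c1 was at 682, 1442, 458 and 155 CPM in EMP-like cells and at 1003, 739.6, 839.8 and 433 in EC-like cells, which were higher at 1, 3 and 16 months and lower at 1.5 months. Thinned EMP-like cells held Ly6a in 76.6%, 80.2%, 41.5% and 52.8% and Ly6c1 in 57.0%, 69.2%, 36.8% and 18.9% of cells, against 2.28% and 1.25% of erythroid-like cells at 1 month. Ly6a was also at 1129 CPM in the Il33-led cluster at 3 months.

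The counts of Ly6c1 and Ly6c2 went to different cells in spite of their like sequence. At 1 month Ly6c2 reached 2976 CPM in monocyte-like and 1296 in neutrophil-like cells, where Ly6c1 was at 15.6 and 10.3. In EMP-like cells Ly6c2 was at 220, 4.13, 82.4 and 0 CPM, and in erythroid-like cells at 1 month at 199. Ly6c2 in EMP-like cells was therefore highest in the libraries whose EMP-like cells also held neutrophil RNA.

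Cd34, at chr1:194938819-194961279, is known from vessels and blood progenitors as well as fibroblasts. It was at 316, 453, 152 and 147 CPM in EMP-like cells, and the intervals at 3 and 16 months overlapped. With a limit of 10% on mitochondrial UMIs these 2 values were 216 and 87.4, more than 2-fold apart. EC-like cells held 546, 368, 245 and 106 CPM, higher at 1 and 3 months, while the intervals overlapped at 1.5 and 16 months. Cd34 was found in 51.1%, 57.6%, 23.6% and 24.5% of thinned EMP-like cells, and in 18.9% of basophil or mast-like cells at 1 month and 16.0% of granulocyte progenitor-like cells at 3 months. The latter cluster was led by the basophil gene Mcpt8, so it was a mixed one. OB-like cells at 1 month, which should lack it, held it in 1.34% of cells.

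Dpt, Clec3b, Mfap5 and Tnxb told EMP-like from EC-like cells where Ly6a, Ly6c1 and Cd34 did not. Ly6a, Ly6c1 and Cd34 were found together in 40.9%, 50.6%, 17.0% and 7.55% of EMP-like cells and in 51.2%, 25%, 27.1% and 20.9% of EC-like cells. At least 2 of Dpt, Clec3b, Mfap5 and Tnxb were found in 74.9%, 75.6%, 37.7% and 31.1% of EMP-like cells, but in 1 of 170, 0 of 32, 0 of 229 and 0 of 86 EC-like cells. Both conditions were met by 38.7%, 50%, 17.0% and 6.60% of EMP-like cells. Pi16, Thy1 and Dpp4 were in neither set. Pi16 was found in 4.26%, 8.72%, 2.83% and 4.72% of EMP-like cells, against 5.88%, 0%, 2.62% and 0% of EC-like cells. Thy1, a surface gene, was found in 44.3%, 54.7%, 14.2% and 17.9%, against 1.76%, 6.25%, 2.18% and 2.33%, and no interval overlapped.

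Thy1, at chr9:44043384-44048579, was shared with mural cells, the muscle and pericyte layer of vessels. It was at 270.2, 369, 63.3 and 109 CPM in EMP-like cells. Mural-like cells numbered 27, 65, 30 and 22 and held Thy1 at 488, 731, 509 and 55.6 CPM, above EMP-like cells in the 3 younger libraries, while the intervals overlapped at 16 months. Thy1 was found in 44.3%, 54.7%, 14.2% and 17.9% of thinned EMP-like cells and in 0.683% of erythroid-like cells at 1 month. T or NK-like cells at 1 month, of which Thy1 is a long known antigen, held it at 188 CPM.

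A small subcluster of the EMP-like class lacked Thy1. It was led by Prg4, which codes for the joint lubricant lubricin, and had 21 cells at 1 month and 10 at 1.5 months. Prg4 was also among the leading genes of the EMP-like clusters at 3 and 16 months, which were not divided further, and was at 2091, 2258, 2030 and 1830 CPM in all EMP-like cells from youngest to oldest. Cells of the small subcluster had no Thy1 UMI, against 302 and 399 CPM in the main EMP-like cluster. Their Ly6a was at 1292 and 2567 CPM and their Ly6c1 at 903 and 1611, against 1352 and 2258 and against 657 and 1428. Clec3b was lower there, at 104 and 610 CPM against 1535 and 2525.

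Most Pi16 lay outside the fibroblasts. Neutrophil-like cells held Pi16 at 88.2, 13.7, 82.8 and 133 CPM and EMP-like cells at 49.5, 131, 48.6 and 28.5, so neutrophil-like cells were higher at 1, 3 and 16 months and EMP-like cells at 1.5 months. Monocyte-like (93.5 CPM) and dendritic-like cells (97.8 CPM) at 1 month were at the neutrophil-like level within their intervals, while B-like cells were at 9.71 and erythroid-like cells at 10.7. The dendritic-like cluster had 6 neutrophil and 4 B markers raised beside 3 dendritic ones, so its Pi16 cannot be credited to dendritic cells. Blood cells held 90.8%, 12.7%, 84.0% and 89.1% of the Pi16 UMIs of a library, and EMP-like cells 2.59%, 65.1%, 6.69% and 5.88%. The 1.5 month library, which stands apart here, had 169 neutrophil-like cells, and these held their own naming markers at 47714 CPM, against 366963 to 438791 in the other libraries.

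Pi16 was found in 25.1% of thinned neutrophil-like cells at 1 month (23.1% to 27.1%), 4.73% at 1.5 months, 23.2% at 3 months and 34.6% at 16 months. It was found in 4.26%, 8.72%, 2.83% and 4.72% of EMP-like cells and in 2.51%, 0%, 0% and 0.510% of erythroid-like cells. The intervals of EMP-like and erythroid-like cells overlapped in each library, of which the 1.5 month one had 40 erythroid-like cells. AD-like cells there held Pi16 in 0.0862% (up to 0.479%), below the lower bound of 4.96% of EMP-like cells. The summed level was above that of erythroid-like cells in all 4 libraries, and no interval overlapped. From youngest to oldest it was 49.5 against 10.7, 131 against 2.40, 48.6 against 0 and 28.5 against 0.354 CPM. At 16 months the intervals of macrophage-like (25.6 CPM) and granulocyte progenitor-like cells (22.3 CPM) overlapped that of EMP-like cells. Monocyte-like cells (49.8 CPM) overlapped it at 3 months. At 1 month Pi16 was found in 5.88% of EC-like, 8.15% of granulocyte progenitor-like and 8.31% of basophil or mast-like cells. These shares overlapped that of EMP-like cells in their intervals, while the summed levels were lower, at 18.7, 30.5 and 27.0 CPM.

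Pi16 was also read beside the other genes within single cells. Of the 8 genes other than Pi16 and Dpp4, thinned EMP-like cells with Pi16 held 6.10, 6.40 and 4.20 on average at 1, 1.5 and 16 months, in 10, 15 and 5 cells, and those without it 4.65, 4.98 and 2.04. These means rest on few cells, in a class that also holds cells with none of the genes. Neutrophil-like cells at 1 month held 0.105 with Pi16 and 0.118 without, too few to show whether Pi16 goes with these genes there. Where it was found, Pi16 had 2.90, 3.87 and 2.80 UMIs per thinned EMP-like cell at these ages and 1.18, 1 and 1.29 per neutrophil-like cell. At 3 months 3 thinned EMP-like cells held it, too few for a mean. Pi16 lies at chr17:29317680-29330593 and overlaps the antisense gene AC162182.1, and the strand setting of the counting is not given in the sources used here.

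Dpp4, also known as Cd26 of lymphocytes, was near the limit of detection in EMP-like cells, with 28, 20, 3 and 7 UMIs in all, or 13.2, 13.8, 4.42 and 7.66 CPM. It lies at chr2:62330073-62412231. B-like cells at 1 month held 59.6 CPM in 466 cells, and 14.4% of them had a UMI after thinning against 4.26% of EMP-like and 0.456% of erythroid-like cells. No other library had a B-like class of 20 or more cells. At 1.5 months EMP-like cells were highest, and their interval overlapped that of the 32 EC-like cells (3.44 CPM). At 3 months granulocyte progenitor-like cells were at 5.62 CPM, within the EMP-like interval, and at 16 months macrophage-like cells were at 11.1 CPM, also within it, while a mixed cluster of 32 cells held 1 UMI. Pi16 and Dpp4, often used as a pair, were found together in 1 of 235, 2 of 172, 0 of 106 and 2 of 106 thinned EMP-like cells.

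**Figure D2:**
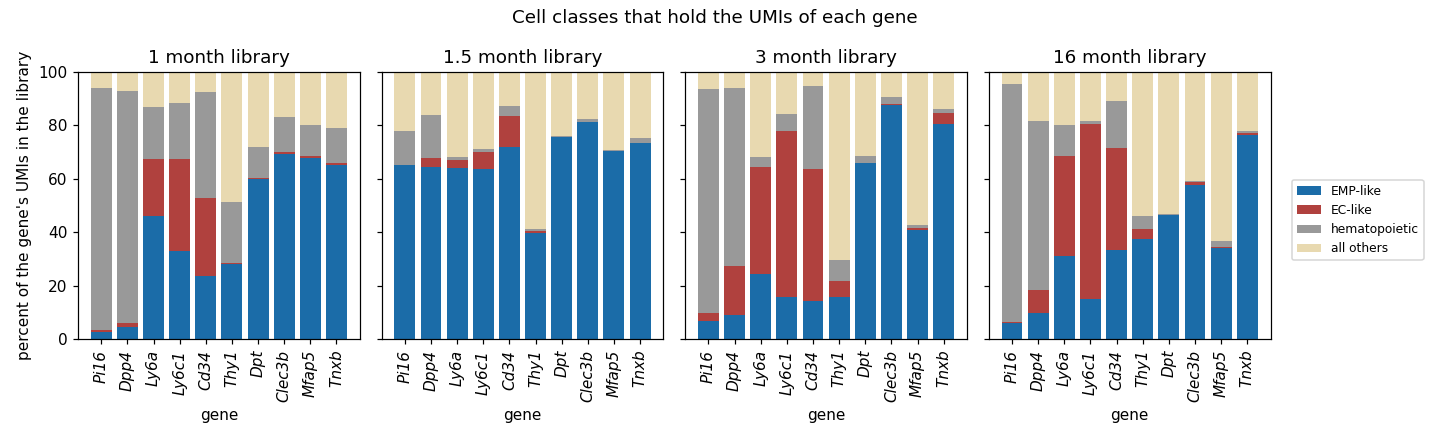
Percent of each gene's UMIs in a library that lie in EMP-like cells, EC-like cells, blood (hematopoietic) cells and all other cells, with 1 bar per gene and 1 panel per library. Blood cells hold 84.0% to 90.8% of Pi16 in all but the 1.5 month library, and EMP-like cells hold 57.8% to 87.6% of Clec3b in all 4.

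EMP-like cells were then compared with the other mesenchymal classes, which leave out EC-like and mural-like cells, among genes with at least 10 CPM in a class compared. At 1 and 1.5 months all 10 genes were at least 2-fold higher in EMP-like cells than in the highest other mesenchymal class, against 1.67% and 2% of all genes tested. At 3 months 5 of 9 were (Ly6c1, Cd34, Dpt, Clec3b and Tnxb), against 2.37%, and at 16 months 8 of 9, all but Pi16, against 1.56%. The median log2 ratio of the genes was 3.45, 3.67, 1.24 and 3.05, against -0.53, -0.57, -0.77 and -0.56 over all genes. Naming markers such as Cd248 vary with these genes, and the study lists Ly6a, Cd34 and Thy1 for its early mesenchymal progenitors. These counts thus describe the class and are no independent support for its name. In the Il33-led cluster at 3 months Thy1 was at 154 CPM, while Clec3b was at 77.1 and Tnxb at 0.

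Between neighbouring ages a limit of 2-fold was used in the same way. From 1 to 1.5 months Pi16 (2.64 times) and Ly6c1 (2.11 times) were higher, 2 of 10, against 6.64% of all genes, and none was lower, against 7.18%. From 1.5 to 3 months 9 of 10 were lower, against 9.4% of all genes, with the widest gaps for Thy1 (5.82 times) and Dpt (4.68 times). Tnxb stayed within the limit (1.62 times lower), and none was higher, against 8.29%. Thinned EMP-like cells with none of the 10 genes were 5.23% at 1.5 months and 38.7% at 3 months. The part of this make-up of the class in the gaps was not tested. From 3 to 16 months Ly6c1 (2.94 times), Dpt (2.39 times) and Clec3b (2.28 times) were lower, 3 of 9, against 12.1%, and none was higher, against 26.8%.

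The 10 genes together made up 5698 CPM of EMP-like cells at 1 month (5597 to 5800), 9252 at 1.5 months (9096 to 9410), 3145 at 3 months (3013 to 3281) and 1922 at 16 months (1833 to 2014). Without the EMP-like cells that held most blood-cell RNA, which left 114 cells at 3 months, the sum there was 4219 CPM and 8 of 10 genes were lower than at 1.5 months. At 16 months, a limit of 10% on mitochondrial UMIs gave 268 EMP-like cells and 1322 CPM.

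**Figure D3:**
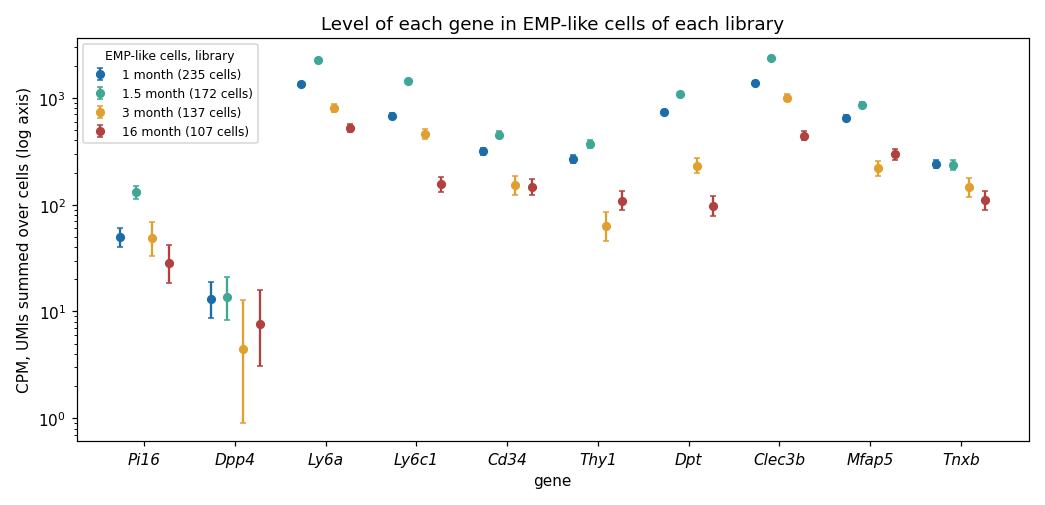
CPM of each gene in EMP-like cells (log axis), with 1 point per library and bars for the 95% Poisson interval of counting error. For 9 of the 10 genes the 1.5 month point is the highest, Tnxb being level with 1 month, and the points of 3 and 16 months lie below both younger ones for each gene, although some intervals overlap for Pi16 and Dpp4.

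Cells were next read one by one after thinning. EMP-like cells held 4.80, 5.23, 2.46 and 2.21 of the 10 genes on average, EC-like cells 2.33, 1.44, 1.60 and 1.09, and neutrophil-like cells at most 0.365. At 3 months the Il33-led cluster, unnamed because EMP-like and LMP-like markers tied in it, held 2.16 on average in 31 thinned cells. Of its cells 41.9% held 3 or more, against 37.7% of EMP-like cells, and 0 held 5 or more. Cells with 5 or more of the 10 numbered 159 of 8308, 120 of 5450, 28 of 3834 and 21 of 5614. Of these, 81.8% (74.9% to 87.4%), 95% (89.4% to 98.1%), 100% (87.7% to 100%) and 95.2% (76.2% to 99.9%) were EMP-like. The clustering did not use the 10 genes but used others that vary with them. The remaining cells at 1 month were mainly 7 cells of an unnamed mesenchymal cluster led by Nppc, 6 of mixed clusters and 4 CH-like cells. At 3 months, 4 or more of the genes were also found in 8 EC-like cells and 7 of the Il33-led cluster, and no cell of any library held all 10.

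**Figure D4:**
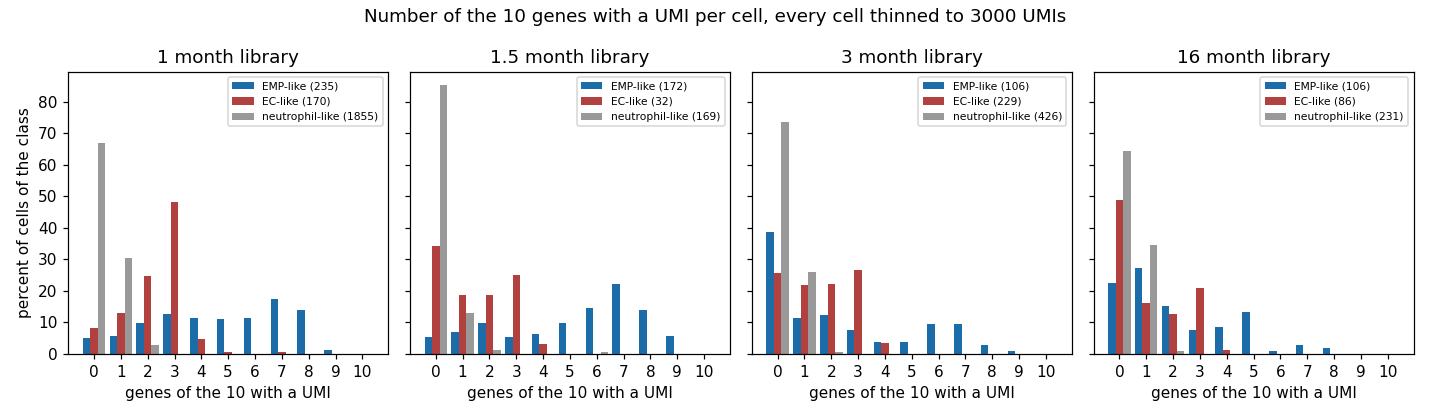
Number of the 10 genes with a UMI per cell (horizontal) against percent of the cells of a class (vertical), with bars for EMP-like, EC-like and neutrophil-like cells thinned to 3000 UMIs. EMP-like cells reach 8 or 9 genes, most EC-like cells hold 3 or fewer and most neutrophil-like cells 0 or 1, and 38.7% of EMP-like cells at 3 months hold 0.

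EMP-like cells were not uniform. None of the 10 genes was found in 12 of 235, 9 of 172, 41 of 106 and 24 of 106 thinned EMP-like cells, and 5 or more in 55.3%, 66.3%, 26.4% and 18.9%. At 3 months the 41 cells without any held the naming markers at 2020 CPM, against 22431 in the 28 cells with 5 or more. Neutrophil marker RNA was at 27957 against 1479 CPM and chondrocyte marker RNA at 9608 against 335. At 16 months the naming markers were at 1909 CPM in cells without any of the genes and at 24689 in those with 5 or more, while neutrophil markers were at 389 and 254. The levels of the class at 3 and 16 months thus average over cells with and without these genes.

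Within EMP-like cells 36 of the 45 pairs of genes were found in the same cells more often than independent detection would give in all 4 libraries, and 0 pairs less often in all 4. Pairs with Pi16 or Dpp4 weigh little in this count. At 3 months Pi16 was found in 3 and Dpp4 in 1 of 106 cells, so 1 shared cell can lift a pair above independence. The median phi coefficient (0 for independent genes, 1 for always together) was 0.17, 0.22, 0.31 and 0.22. The class holds cells with and without the genes, and such a mixture raises phi. Dpt and Clec3b had the highest mean phi (0.50 to 0.62), and Clec3b was found in 84.9%, 93.3%, 87.1% and 93.3% of EMP-like cells with Dpt, against 28.6%, 35.8%, 24% and 25.3% of those without. Ly6a and Ly6c1 ranged from 0.26 at 16 months to 0.65 at 1.5 months. Pi16 and Thy1 had the lowest mean phi. At 16 months 19 cells held Thy1 and 15 held Dpt, and 0 held both, where independence would give 2.69.

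**Figure D5:**
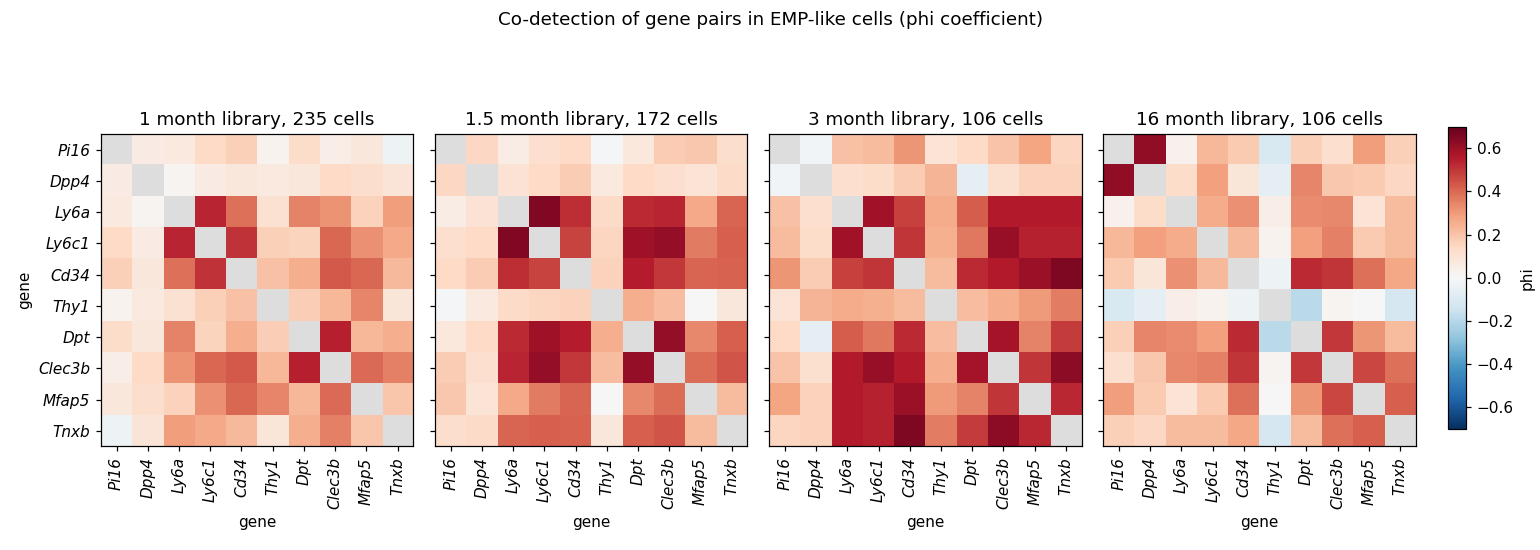
Phi coefficient of each pair of genes in thinned EMP-like cells, with red for pairs found together more often than independence would give and blue for less, and 1 panel per library. The pairs among Ly6a, Ly6c1, Cd34, Dpt, Clec3b, Mfap5 and Tnxb are red in all 4 panels, and the strong red of Pi16 with Dpp4 at 16 months rests on 2 cells.

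Genes outside the 10 with the most like pattern were sought over 46 points of class and library with at least 50 cells each, which share libraries and depth, by Pearson's r of log2(CPM + 1). Ly6a was nearest to Fbln2 (r = 0.90), a matrix fibulin, and so was Ly6c1 (r = 0.84). Clec3b was nearest to Col6a6 (r = 0.90), a collagen VI chain, Dpt to Tppp3 (r = 0.89), Mfap5 to the peptide hormone gene Pthlh (r = 0.91), Tnxb to Hmcn2 (r = 0.87) and Thy1 to the stromal surface gene Cd248 (r = 0.82). Cd34 was nearest to Cadm3 (r = 0.77) and Dpp4 to Tmem108 (r = 0.77). Pi16 went with Cdk2ap2, Serpinb1a and Il1r2 (r = 0.80 to 0.81), of which Serpinb1a inhibits neutrophil proteases and Il1r2 is the decoy receptor for interleukin 1. None of the 10 was among the 100 genes nearest to Pi16.

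Other genes of the Pi16 fibroblast state were followed by a list of 14. Of those tested 5 of 12, 6 of 11, 3 of 11 and 3 of 11 were at least 2-fold higher in EMP-like cells than in the highest other mesenchymal class, read against the shares of all genes given for that comparison. The list's median log2 ratio was 0.40, 1.91, -0.71 and -0.17, so at 3 and 16 months most of its genes were higher in another mesenchymal class, with 4 and 5 of 11 highest in EMP-like cells. At 3 months Pcolce2, an enhancer of procollagen cleavage, was at 592 CPM in EMP-like and 2733 in CH-like cells, and the protease inhibitor Timp3 at 503 and 1471. Has1, a hyaluronan synthase, was at 241, 359, 190 and 157 CPM in EMP-like cells, and Procr, the endothelial protein C receptor, at 82.1, 107, 33.9 and 67.9. Both passed the limit in every library. Of 8 genes of the Col15a1 fibroblast state 0, 0, 0 and 1 passed, the 1 being Col15a1 at 16 months. Of 13 general fibroblast genes 2, 2, 1 and 2 passed, with Fbln2 in every library and Col14a1 in all but the 3 month one.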

How the data were processed

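Td+ endosteal cells were sorted and sequenced by the authors with the 10x Genomics method. The deposited values are raw UMI counts, made by the authors with Cell Ranger 3.0.2 on mm10 with the reporter added (versions from the submitters' processing notes). The filter that the study states was applied, which asks for 200 to 6000 genes and no more than 5% mitochondrial UMIs per cell. Cells were clustered in R 4.3.3 with Seurat 5.3.0 (2000 variable genes less the 10 genes, listed genes and naming markers, 30 components, resolution 0.8), with the 1 and 1.5 month libraries aligned by canonical correlation, and mesenchymal clusters were clustered again. A cluster was named from at least 3 markers raised 2-fold, in 10% of its cells and at 25% of the highest cluster. CPM were taken over UMIs summed by class, with Poisson intervals, and shares were given Clopper-Pearson intervals after thinning each cell to 3000 UMIs, which left out 346 and 529 shallower cells at 3 and 16 months and 0 and 3 at 1 and 1.5 months. No doublets were removed. Scrublet's own threshold marked 350, 97, 57 and 9 cells from youngest to oldest, and as an alternative the top 8% of its scores were removed in each library. The genes, lists and markers were chosen with earlier results of these data known. For each gene the 3 others with the highest r were named, besides genes of fixed lists. The Scrublet scores came from scanpy 1.11.5.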

Additional observations from a re-analysis of the deposited data

Results flagged for a closer look

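Barcodes outside the cell filter, which the values of the report do not use except where a limit of 10% on mitochondrial UMIs is named, also held the genes together. In the 16 month library 9 of 2093 such barcodes with at least 3000 UMIs held 5 or more of the 10 genes, or 0.430% (0.197% to 0.815%), above the 0.143% that a count of 0 allows, which is why it is listed. The cells kept in that library were at a like rate, with 21 of 5614 or 0.374%. Of the 3086 barcodes left out of that library, 2987 were over the limit of 5% mitochondrial UMIs. In the 1, 1.5 and 3 month libraries 3 of 109, 2 of 291 and 3 of 239 did, none above that limit.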

How the results depend on the processing

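No paired analysis was possible because each age is 1 library. No interval covers differences between mice, and the 16 month library had 107 EMP-like cells. No EMP-like class was found there at a resolution of 0.5 or with doublets removed, and 268 cells were EMP-like with a mitochondrial limit of 10%. The summed CPM kept the order of the 4 ages in every setting that gave all 4. At 1, 1.5 and 3 months it was 7326, 11335 and 4241 at resolution 1.2 and 7451, 11319 and 3881 without doublets. At the 4 ages it was 7473, 11556, 4540 and 1322 with the limit of 10% and 6492, 9034, 4102 and 2074 as a mean of each cell's CPM. At resolution 0.5 it was 9031 at 1.5 and 3489 at 3 months, and with the 2 younger libraries clustered alone 7633 and 8749. The next 3 settings were chosen after seeing the data. Without EMP-like cells at or above 750 CPM of 4 blood-cell genes it was 6229 at 1 and 4219 at 3 months, without the Prg4-led subcluster 6045 and 9516, and with the Il33-led cluster 2918 at 3 months. The mean number of genes per cell was, at 1 and 1.5 months, 5.47 and 6.26 at resolution 1.2, 5.58 and 4.63 for libraries alone and 5.53 and 6.16 without doublets. At the 4 ages it was 5.51, 6.33, 3.07 and 1.62 with the limit of 10% and 5.97, 6.05, 3.02 and 2.97 without thinning, and it was 4.16, 4.63 and 1.80 (1, 1.5 and 16 months) at 2000 UMIs. The EMP-like share of cells with 5 or more genes was 74.2% at 1 month for libraries alone, 87.7% and 98.2% at 1 and 1.5 months without doublets, 87.6% at 1 month at 2000 UMIs, and 70.0%, 88.6% and 83.3% at 1, 1.5 and 3 months without thinning. It was 88.1% at 1 month for 6 or more genes and 66.7% at 3 months for 4 or more. At 3 months 9 genes were 2-fold over the other mesenchymal classes without doublets and 8 with the Il33-led cluster. From 1 to 1.5 months 0 genes were 2-fold higher with libraries alone and 1, Pi16, with the limit of 10%, without doublets, by the mean per cell or without blood-cell RNA. From 3 to 16 months 7 were lower with the limit of 10%, 5 without blood-cell RNA and 1 with the Il33-led cluster, and 1 (Dpp4) was higher by the mean per cell. The causes were not tested. Of 270 values of single genes under a setting, 141 fell outside the main interval, which covers counting error only. So did 23 of 27 summed CPM, 17 of 31 means per cell and 9 of 39 EMP-like shares. Of the 270 single-gene values, 12 moved by over 1.5 times, all at 3 or 16 months.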
